A study of Arabidopsis thaliana with 12 samples.

Results

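Roots of the Arabidopsis *clf* mutant were compared with wild type roots on iron sufficient medium, gene by gene. All 3 *clf* and all 3 wild type libraries labelled iron sufficient were taken, 6 of the 12 libraries of the series, and 20168 of the 32678 genes in the count table passed a filter on low counts and were tested. The wild type was *Arabidopsis thaliana* ecotype Columbia (Col-0), and the *clf* roots carried *clf-29*, a T-DNA insertion allele of *CURLY LEAF* (*CLF*) in that ecotype, with no second allele among the libraries. Seedlings were kept for 12 days on B5 medium and moved for 3 days to medium with iron (+Fe), and roots were taken. In the other 6 libraries the same genotypes had spent the 3 days without iron and with the iron chelator ferrozine (-Fe), and they serve here as a second measurement of the genotype effect in separate samples. The comparison asks which genes change in roots when *CLF* is lost while iron is available.

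CLF is a histone methyltransferase of Polycomb repressive complex 2 (PRC2), which places trimethylation on lysine 27 of histone H3 (H3K27me3), a mark of silent genes. In Arabidopsis the complex keeps developmental regulators silent outside their own tissue, and the floral homeotic MADS box gene *AGAMOUS* (*AG*) is the classic gene released in leaves of *clf* plants. SWINGER (SWN) is a second methyltransferase of the same complex and covers part of the work of CLF.

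Total counts per library ranged from 18658428 to 21508495 in +Fe wild type and from 21002002 to 28281420 in +Fe *clf*. Levels are given as CPM, the reads of a gene scaled to the TMM-normalized size of its library, and a gene was called at an adjusted p under 0.05 in the quasi-likelihood test of edgeR, where p was adjusted by Benjamini-Hochberg over the 20168 genes. Log2 fold changes compare *clf* with wild type, each with its standard error (SE). The p-values measure the spread among the libraries, which the study's methods describe as biological replicates. In each +Fe group 1 library correlated least with the others, namely wild type replicate 1 (mean correlation 0.934) and *clf* replicate 2 (0.95). Both also had the highest summed level of photosynthesis genes in their group and the lowest levels of the iron uptake gene *IRT1*. They stood apart in clock genes too. *LHY*, a morning gene of the clock, was at 6.62, 58.9 and 60.4 CPM in wild type and 76.8, 3.97 and 59.1 CPM in *clf*, and *FKF1*, an evening gene, at 20.5, 2.56 and 2.11 against 2.05, 24.8 and 1.5 CPM. The summed level of the 18 tested photosynthesis genes was 503 to 956 CPM in wild type and 471 to 1390 CPM in *clf*. None of these 18 genes, and none of the 21 tested clock genes, was called or had an unadjusted p under 0.05 in the edgeR fit of all libraries. The spread in that fit includes the libraries that stand apart. A fit without the least correlated library of each of the 4 groups called *CAB2* of the photosynthesis genes and *PRR3* of the clock genes lower. The part of these differences between libraries in the results below was not tested. Root markers were read in both genotypes. The 7 tested endodermis genes summed to 182 to 282 CPM in wild type and 270 to 293 CPM in *clf*. The 9 tested genes of root hairs and epidermis summed to 56.3 to 192 CPM in wild type and 130 to 248 CPM in *clf*. Their median log2 fold change was 0.57, with no call, and whether the make-up of the tissue differed was not tested.

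*CLF* itself was read at 49.7, 44.9 and 43.6 CPM in the 3 wild type libraries and at 15.8, 10.3 and 14.9 CPM in the 3 *clf* libraries. Every *clf* library lay below every wild type library, and the remaining level was 29.7% of wild type. The log2 fold change was -1.75 (SE 0.17, adjusted p = 0.00341 in edgeR's quasi-likelihood test). Its gene model spans bases 9955092 to 9960386 of chromosome 2 (TAIR10.1, plus strand). The ends of the model overlap its neighbours AT2G23370 and AT2G23390 over 58 and 22 bases, and how reads there were counted is not given beyond the union mode of the counting. *CLF* kept its direction in all 25 alternatives. It was the only gene called lower, 0.00496% of the genes tested. The other PRC2 genes that were tested showed no call. *SWN* was at 59.3, 53.1 and 63.7 CPM in wild type and 56.2, 52.7 and 48.1 CPM in *clf*, a log2 fold change of -0.17 (SE 0.13). *EMF2* and *VRN2*, which encode alternative zinc finger subunits, and *FIE* and *MSI1*, which encode WD40 subunits, differed by -0.02, 0.04, 0.04 and 0.05 on the log2 scale. *MEA*, a methyltransferase gene known from the endosperm, was low and uneven, at 0.127, 2.09 and 1.06 against 0.602, 0.411 and 0.701 CPM (log2 fold change -0.91, SE 0.84). Over the 7 tested PRC2 genes the median log2 fold change was -0.02, against -0.01 over all genes.

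Apart from *CLF*, 13 genes were called and all were higher in *clf*, 0.0645% of the genes tested. At an unadjusted p under 0.05, 391 genes were higher (1.94%) and 289 lower (1.43%). The spread of fold changes was narrow, with the 5th and 95th percentiles at -0.55 and 0.66 on the log2 scale. In all 13 the lowest *clf* library was above the highest wild type library, as was the case for 4.48% of all genes, and 4.34% of genes were separated the other way. The number of calls depended on each library. It was 8, 5 or 1 higher when wild type +Fe replicate 1, 2 or 3 was left out, 6, 7 or 6 when *clf* +Fe replicate 1, 2 or 3 was, and for *clf* -Fe replicates 2 and 3, which enter the shared estimate of spread, it was 6 each time. Without the least correlated library of each of the 4 groups it was 273 higher and 247 lower, of 20072 genes tested there. That fit narrows the spread by its own rule and still held all 13. AT5G05060 was called in all 25 alternatives, *CLF*, *SADHU5-1* and AT5G56370 in 23, AT1G52100 and AT3G21040 in 22 and *SADHU3-2* in 20. The other 7 genes were called in 11 to 14 of them, with the same direction in each.

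**Figure D1:**
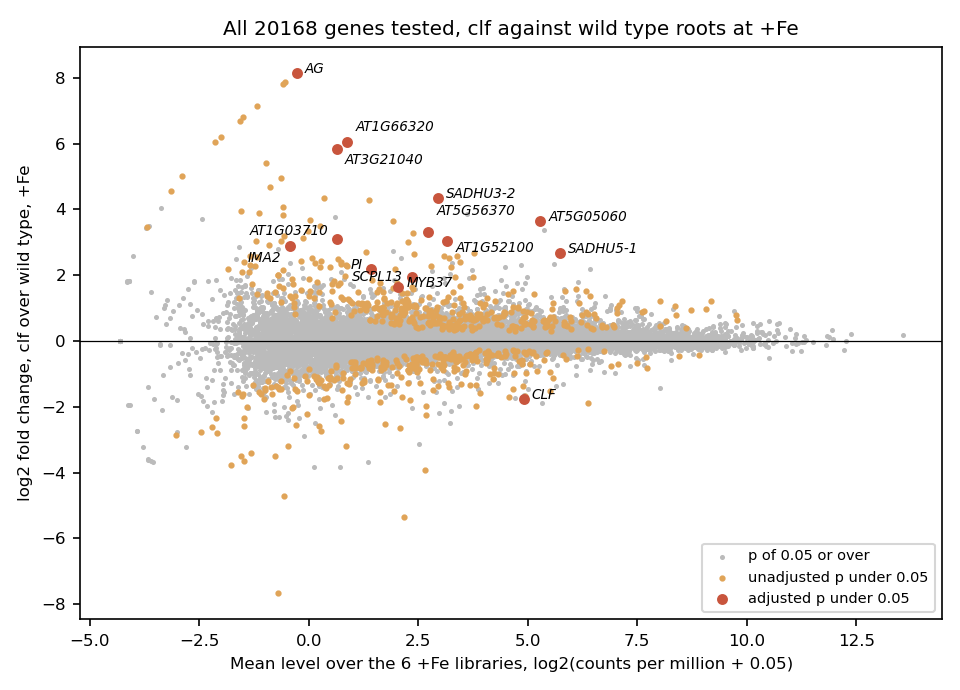
Each point is 1 of the 20168 genes tested, with its mean level over the 6 iron sufficient libraries on the horizontal axis, as log2(CPM + 0.05), and its log2 fold change, *clf* against wild type, on the vertical axis. The 14 called genes are red and labelled, 13 of them above 0 and *CLF* below, and most lie left of the middle, where levels are low. The fitted fold change of *AG* rests on wild type libraries with no read and is no estimate of size.

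Floral organ identity genes were among the genes called higher. *AG*, whose product specifies stamens and carpels, had no read in any wild type library and 58, 27 and 29 reads in the *clf* libraries, or 2.05, 1.23 and 1.36 CPM. With a floor of 3 reads over the wild type group, it was at least 33.8-fold higher in *clf* (adjusted p = 0.0447). *PISTILLATA* (*PI*), which specifies petals and stamens, was at 0.886, 1.2 and 0.767 CPM in wild type and 4.43, 3.47 and 5.09 CPM in *clf*. The groups did not overlap, and the log2 fold change was 2.18 (SE 0.32, adjusted p = 0.0447). *AG* and *PI* were the 2 of 14 floral organ MADS genes called. *APETALA3* (*AP3*), the partner of *PI*, *SEPALLATA3* (*SEP3*) and *SEP4* were the other tested members, and all had positive fold changes with groups that did not overlap. *AP3* was at 0.295, 0.156 and 0.384 CPM in wild type and 0.992, 0.821 and 0.561 CPM in *clf* (unadjusted p = 0.0156), and *SEP4* at 0.76, 0.522 and 0.0959 against 2.16, 1.96 and 3.74 CPM (unadjusted p = 0.0032). The median log2 fold change of the 5 tested members was 2.49, also with *AG* and *SEP3* set at their lower bounds. The 9 untested members were too low for the filter in both genotypes, which keeps members that rise in 1 group, so the median does not describe the whole family. The summed level of the 5 tested genes was 1.25 to 1.94 CPM in wild type and 8.03 to 11.7 CPM in *clf*. In bulk roots, few cells with much of this RNA cannot be told apart from many cells with little.

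The 250 bases upstream of the annotated start were read from the RefSeq genome (TAIR10.1) for the 13 genes called higher, and 3 motifs linked to Polycomb or MADS proteins in Arabidopsis were searched on both strands. These were the telobox AAACCCTA, the GA repeat GAGAGA and the CArG box, the binding site of MADS proteins. A GA repeat was present upstream of 4 of the 13 genes (30.8%), namely *AG*, *PI*, *SADHU5-1* and AT1G52100, against 19.5% of all tested genes with an upstream sequence. The telobox was present upstream of 1 of 13 (7.69%), against 3.61% of tested genes, and the CArG box upstream of none, against 2.61%. With 13 genes, 1 gene more or less moves these shares widely, and no match says only that the letters are not in this window. The sequences of *AG* (chr4:10382606-10382855, plus strand), *PI* (chr5:6828654-6828903, plus strand) and *SADHU5-1* (chr4:660560-660809, plus strand) are shown for the GA repeats and that of AT3G21040 (chr3:7372510-7372759, plus strand) for the telobox, each in capitals in either orientation, 5′ to 3′ and ending at the base before the start.
AG: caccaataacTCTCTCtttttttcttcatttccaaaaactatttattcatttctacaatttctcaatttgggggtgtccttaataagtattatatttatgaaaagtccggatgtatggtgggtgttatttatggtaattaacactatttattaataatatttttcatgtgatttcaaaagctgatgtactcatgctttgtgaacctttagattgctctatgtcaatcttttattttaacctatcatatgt
PI: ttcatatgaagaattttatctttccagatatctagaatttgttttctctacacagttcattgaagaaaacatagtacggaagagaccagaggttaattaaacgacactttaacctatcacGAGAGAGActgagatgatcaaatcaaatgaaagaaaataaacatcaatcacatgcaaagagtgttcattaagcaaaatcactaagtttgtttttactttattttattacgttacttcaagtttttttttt
SADHU5-1: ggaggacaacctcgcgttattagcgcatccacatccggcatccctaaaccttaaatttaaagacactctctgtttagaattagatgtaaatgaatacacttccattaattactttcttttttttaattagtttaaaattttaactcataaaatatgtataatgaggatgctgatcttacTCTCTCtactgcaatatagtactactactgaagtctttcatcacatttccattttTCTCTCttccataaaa
AT3G21040: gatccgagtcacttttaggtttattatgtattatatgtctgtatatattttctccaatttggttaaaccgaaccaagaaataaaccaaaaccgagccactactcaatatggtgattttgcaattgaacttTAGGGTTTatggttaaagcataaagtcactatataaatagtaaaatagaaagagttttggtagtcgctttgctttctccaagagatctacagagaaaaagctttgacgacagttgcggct

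*AG* belongs to a set of 10 genes with no read in the 3 wild type +Fe libraries and at least 5 reads in every *clf* +Fe library, 0.0306% of the genes in the table. No gene met the reverse rule (0%). Both rules count reads not scaled for library size. Total counts at +Fe were 18658428 to 21508495 in wild type and 21002002 to 28281420 in *clf*, so no read was a stricter demand in *clf*. Among the 10 were 3 floral MADS genes, *AG*, *SEP3* (5, 12 and 21 reads in *clf*) and *APETALA1* (*AP1*; 14, 6 and 9 reads), which specifies sepals and petals. *TCP1* (9, 5 and 6 reads) and *TCP5* (5, 5 and 6 reads) encode transcription factors of the TCP family, which shape shoot organs, and *NF-YC7* (25, 8 and 12 reads) a subunit of the nuclear factor Y complex. The others were AT1G51300, a hydrolase gene with 24, 45 and 20 reads, AT2G22060, a kelch repeat gene with 38, 20 and 30, AT1G66290, an F-box gene with 17, 9 and 28, and AT1G30160 with 6, 9 and 8. Of the 10, edgeR tested 6 and called *AG*, and DESeq2 on the 12 libraries also called AT1G51300, AT2G22060, AT1G66290 and *NF-YC7*. *AP1*, *TCP1*, *TCP5* and AT1G30160 were under the filter of edgeR. The -Fe libraries, which the rule did not use, gave no read in wild type for 6 of the 10 genes and at least 1 read in every *clf* library for all 10. This is looser than the 5 reads asked for at +Fe, and its share over all genes was not counted. *SEP3*, *TCP1* and *TCP5* each had only 1 read in a *clf* -Fe library.

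**Figure D2:**
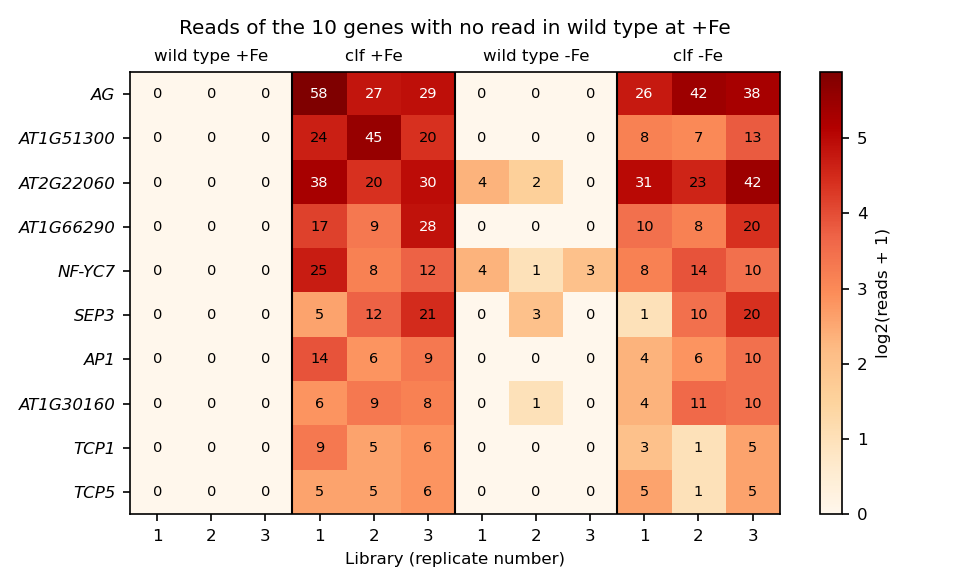
Reads per library of the 10 genes with no read in wild type and at least 5 reads in each *clf* library at +Fe, with the number of reads written in each cell and the colour showing log2(reads + 1). The right side holds the -Fe libraries, in which *clf* again had reads of every gene and wild type had at most 4.

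The 13 genes called higher included 2 of the cystatin/monellin superfamily, 2 F-box genes and a lectin gene. AT5G05060, a cystatin/monellin superfamily gene on chromosome 5 (1493719 to 1495136, minus strand), was at 5.53, 6.83 and 4.75 CPM in wild type and 64.4, 80.8 and 70.5 CPM in *clf*. Its groups were far apart, and it had the smallest p of all genes, with a mean of 5.7 ± 1.05 against 71.9 ± 8.28 CPM (SD, n = 3). The log2 fold change was 3.66 (SE 0.25, adjusted p = 2.47e-04). AT1G03710, of the same superfamily, was at 0.338, 0.156 and 0.432 CPM in wild type and 2.27, 2.97 and 2.85 CPM in *clf* (log2 fold change 3.09, SE 0.43, adjusted p = 0.0319). F-box proteins select targets for ubiquitination, and AT1G66320 was nearly silent in wild type. It had 3 reads in wild type and 246 in *clf*, a ratio of 73 with an exact 95% interval of 24.7 to 357 that covers counting error only (adjusted p = 0.0447). AT5G56370, the other F-box gene, rose from 1.52, 0.939 and 1.1 CPM to 10.5, 14.8 and 10.6 CPM, by 3.32 on the log2 scale (SE 0.35, adjusted p = 0.00569). AT1G52100, a mannose-binding lectin gene, rose from 3.08, 1.3 and 1.39 CPM to 14.6, 14.5 and 18.4 CPM, by 3.02 (SE 0.33, adjusted p = 0.00569). Members of such families can share sequence with close copies, and how the counting placed shared reads is not given beyond its union mode.

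Sadhu elements are a family of short retroposons, transposon-like sequences that spread by copying RNA, and 2 of them were called. *SADHU5-1* (AT4G01525, chromosome 4, 660810 to 661698) was at 11, 16.5 and 15.3 CPM in wild type and 99.3, 79.6 and 95.7 CPM in *clf*. Every *clf* library was above every wild type library, and the log2 fold change was 2.68 (SE 0.30, adjusted p = 0.00569). *SADHU3-2* (AT3G42658, chromosome 3, 14749400 to 14750294) was at 0.97, 0.574 and 0.575 CPM in wild type and 9.1, 25.1 and 9.63 CPM in *clf* (log2 fold change 4.35, SE 0.53, adjusted p = 0.0127). Its highest value was in *clf* replicate 2. AT3G21040, annotated as a pseudogene, had 3 reads in wild type and 214 in *clf*, a ratio of 63.5 with an exact 95% interval of 21.4 to 310 (adjusted p = 0.00569). Both Sadhu elements are also annotated as pseudogenes by RefSeq, so that 3 of the 13 genes were of this class, which makes up 0.719% of the genes tested (145 genes). Of the 9 Sadhu elements tested, 3 were higher at an unadjusted p under 0.05 and none lower, against 1.94% and 1.43% of all genes. Among all 145 pseudogenes 10 were higher and 7 lower at that level, with a median log2 fold change of -0.01.

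The remaining called genes were *MYB37*, *SCPL13* and *IMA2*. *MYB37* (*RAX1*), a MYB factor known for its role in forming axillary meristems, was at 1.77, 2.24 and 1.92 CPM in wild type and 5.56, 7.8 and 5.09 CPM in *clf* (log2 fold change 1.64, SE 0.24, adjusted p = 0.0447). *SCPL13*, a serine carboxypeptidase-like gene, was at 2.28, 1.62 and 2.3 CPM in wild type and 6.34, 11 and 6.64 CPM in *clf*. Its log2 fold change of 1.95 (SE 0.30) lay at the threshold, with an adjusted p just under 0.05. It is 171781 bases from *CLF*, the shortest distance between any of the called genes. Within 1 Mb of *CLF*, 359 genes were tested. An unadjusted p under 0.05 in edgeR was found for 13 with a positive and 4 with a negative fold change. Together these were 4.74%, against 3.37% of all genes, and edgeR called none but *CLF* and *SCPL13*. DESeq2 on the 12 libraries also called *WRKY59*, AT2G22060 and AT2G22750 of this window higher, where it called 0.258% of all genes higher. They start at bases 9333844, 9380992 and 9671673 of chromosome 2, and each had an adjusted p of 0.052 in edgeR. The part of their position in these values was not tested.

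**Figure D3:**
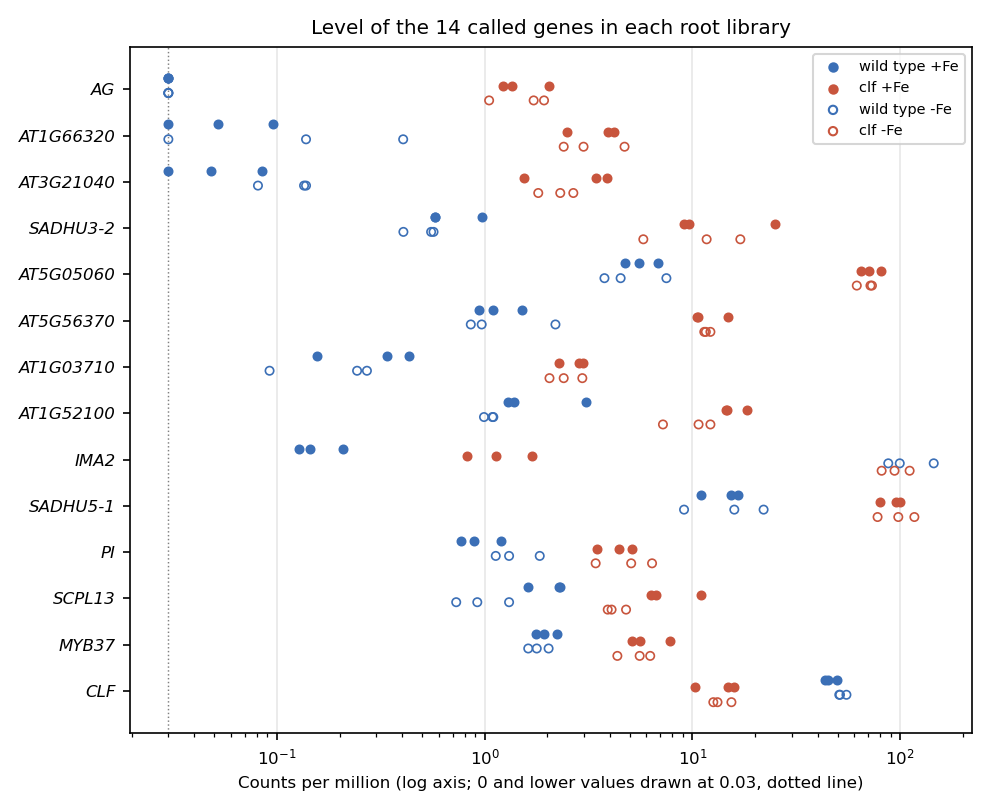
Level of the 14 called genes in each library, as CPM on a log axis, with wild type in blue and *clf* in red, +Fe as filled and -Fe as open points. Values at 0 or under 0.03 CPM are drawn on the dotted line. Filled red points lie right of all filled blue points for 13 genes and left of them for *CLF*, and for *IMA2* the open points of both genotypes sit together near 100 CPM.

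*IMA2* (AT1G47395) encodes an IRON MAN peptide, a short peptide that promotes iron uptake and is induced when iron is scarce. At +Fe it was at 0.127, 0.209 and 0.144 CPM in wild type and 1.13, 0.821 and 1.68 CPM in *clf*. The groups did not overlap, and the log2 fold change was 2.90 (SE 0.40, adjusted p = 0.0319). At -Fe its level was 145, 99.5 and 87.6 CPM in wild type and 111, 93.9 and 81.4 CPM in *clf*, so that both genotypes overlapped. The difference between the genotype effects at -Fe and +Fe was -3.11 on the log2 scale (SE 0.47, unadjusted p = 3.05e-05), and after adjustment over all genes p was 0.205. Its neighbour *IMA1* had 0, 0.209 and 0.0959 CPM in wild type and 0.708, 0.274 and 0.561 CPM in *clf* (unadjusted p = 0.00542). Of 27 tested iron uptake genes edgeR called *IMA2*, and DESeq2 on the 12 libraries called *IMA2* and *BHLH39*. Without the 4 least correlated libraries edgeR called 4 higher and 3 lower, which were *BHLH38*, *BHLH39*, *COBL6*, *FRO2*, *IMA2*, *OPT3* and *UGT72E1*. Over all 20072 genes that fit called 273 higher and 247 lower, many more than the fit of all libraries. In the fit of all libraries 6 of the 27 were higher at an unadjusted p under 0.05, against 1.94% of all genes. These were *IMA1* and *IMA2*, *BHLH39*, *BHLH101*, *OPT3* and *IRT2*. None of the 27 was lower at that level, against 1.43% of all genes. *BHLH39*, which encodes a partner of the master regulator FIT, was at 2.36, 7.04 and 5.95 CPM in wild type and 15.8, 9.99 and 17.3 CPM in *clf*, a log2 fold change of 1.49 (SE 0.34, unadjusted p = 0.00108). The median over the 27 genes was 0.14.

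The main uptake genes did not separate by genotype. *FIT* was at 12, 40.9 and 38.2 CPM in wild type and 44.6, 27.5 and 48.3 CPM in *clf*. *FRO2*, which encodes the root ferric reductase, was at 28.4, 224 and 250 CPM in wild type and 98.2, 10.6 and 147 CPM in *clf*. *IRT1*, which encodes the main ferrous iron transporter, was at 36, 332 and 339 CPM in wild type and 162, 16.8 and 303 CPM in *clf*. In all 3 genes the lowest value of each genotype was in its least correlated library, and the libraries within a genotype differed more than the genotypes did. Log2 fold changes were 0.40 (SE 0.61), -0.97 (SE 0.91) and -0.55 (SE 0.93), with unadjusted p of 0.519, 0.309 and 0.568 in edgeR's quasi-likelihood test. Without the 4 least correlated libraries, which include the lowest value of each genotype, *FRO2* was called lower, with a log2 fold change of -0.95 (adjusted p = 0.0145), and *FIT* and *IRT1* were not called (0.23 and -0.53, adjusted p = 0.502 and 0.417).

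Iron storage genes all had negative fold changes, with no call. *FER1*, which encodes a ferritin, the iron storage protein of plastids, was at 79.3, 61.8 and 56.2 CPM in wild type and 30.2, 30.8 and 28.7 CPM in *clf*, a log2 fold change of -1.14 (SE 0.43, unadjusted p = 0.0229). The groups did not overlap for *FER1* and *VTL1*, a vacuolar iron transporter-like gene at 11.3, 17.7 and 18.3 against 6.94, 7.03 and 5.28 CPM. An annotated gene, AT5G01595, overlaps *FER1* over 1334 bases. Over the 8 tested ferritin and VTL genes the median log2 fold change was -0.75, against -0.01 over all genes, and at -Fe it was 0.11. DESeq2 with the 6 +Fe libraries alone called *FER1* and *VTL1* lower, and edgeR without the 4 least correlated libraries called these and *VTL2* and *VTL5*. That edgeR fit called 247 of all 20072 genes lower.

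Among regulators of flowering time, *FLOWERING LOCUS C* (*FLC*), a MADS repressor of flowering and a known Polycomb target, lay next to the threshold. It was at 1.77, 0.678 and 0.671 CPM in wild type and 7.72, 11.1 and 6.5 CPM in *clf* (log2 fold change 3.00, SE 0.47, adjusted p = 0.052). A non-coding gene, AT5G01675, is annotated over the whole 6067 bases of *FLC*, and whether the counting used strand is not given. *SOC1*, which promotes flowering, was at 8.86, 15.2 and 15.4 CPM in wild type and 40.9, 28.9 and 42.8 CPM in *clf* (log2 fold change 1.51, SE 0.30, adjusted p = 0.17). Its relatives *AGL71* and *AGL72* had log2 fold changes of 3.49 and 4.95 (unadjusted p = 0.0208 and 0.00121), and *AGL72* was nearly silent in wild type, with 0, 0.104 and 0 CPM. The other 7 tested flowering genes, including *SVP*, *FLM* and *MAF2* to *MAF5*, had values between -0.23 and 0.45. The median over the list of 11 was 0.09. DESeq2 on the 12 libraries called *FLC*, *SOC1* and *AGL72* higher.

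Some KNOX homeobox genes, *STM* among them, keep meristem cells undetermined, a role not shared by every member of the family. Of the 7 KNOX genes tested, edgeR called none. DESeq2 on the 12 libraries called *KNAT1* and *KNAT4* higher (adjusted p = 0.0483 and 0.00236). *KNAT1* was at 5.95, 8.35 and 8.63 CPM in wild type and 16, 11.5 and 19.1 CPM in *clf*, and *KNAT4* at 2.7, 3.18 and 3.26 against 6.73, 5.79 and 6.5 CPM. Both had groups that did not overlap. The adjusted p of edgeR was 0.431 for *KNAT1* (log2 fold change 1.03, SE 0.25) and 0.17 for *KNAT4* (1.06, SE 0.21). *STM*, the shoot meristem member, stayed under the filter, with at most 5 reads in a library. In a list of MADS genes read in roots, *AGL19* was higher (log2 fold change 1.18) and *AGL15* lower (-2.57) at an unadjusted p under 0.05, and the median over 9 tested genes was 0.27. Without the 4 least correlated libraries edgeR called *AGL19* and *ANR1* of this list higher. Genes of embryo and seed maturation stayed under the filter apart from *BBM*, which had a log2 fold change of -0.78 (unadjusted p = 0.00479).

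Aliphatic glucosinolate genes, which make sulfur-containing defence compounds from methionine, all had negative fold changes. The median over the 15 tested genes was -0.62, and at -Fe it was -1.04. At +Fe edgeR called none of them, with 3 lower at an unadjusted p under 0.05, against 1.43% of all genes. DESeq2 on the 12 libraries called *MAM1* lower (adjusted p = 0.00339). Without the 4 least correlated libraries, where 247 of all 20072 genes were called lower, edgeR called 6 of them lower. These were *BAT5*, *BCAT4*, *CYP83A1*, *IMD1*, *MAM1* and *MAM3*. *MAM1*, which encodes an enzyme that elongates the side chain, was at 29.5, 49.1 and 50.1 CPM in wild type and 17.8, 10.9 and 21.4 CPM in *clf* (log2 fold change -1.36, SE 0.28, adjusted p = 0.203 in edgeR). *BCAT4*, which encodes the first enzyme of that step, was at 8.27, 51.6 and 48.2 CPM in wild type and 13.7, 3.79 and 16 CPM in *clf*, so that the groups overlapped. Here too wild type replicate 1 and *clf* replicate 2 were the lowest of their groups.

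**Figure D4:**
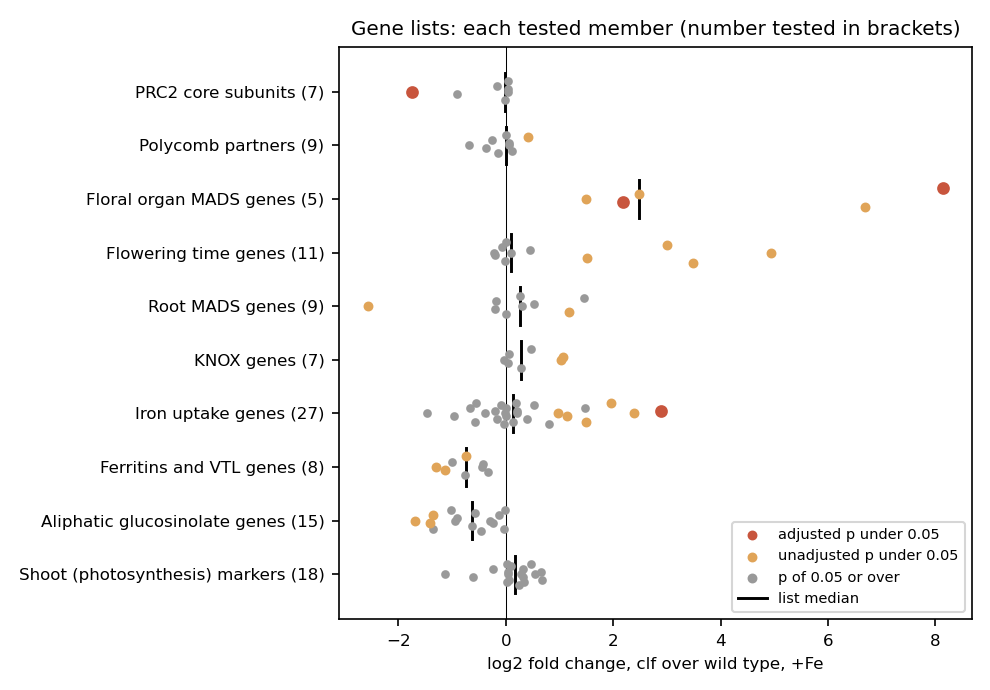
Log2 fold change in *clf* roots at +Fe for each tested member of 10 gene lists, with red points for called genes, orange for an unadjusted p under 0.05 and a black bar for the list median. All 5 tested floral MADS genes lie right of 0 (median 2.49), while all 8 ferritin and VTL genes (median -0.75) and all 15 aliphatic glucosinolate genes (median -0.62) lie left of it. The 9 floral MADS genes under the filter are not drawn. The filter keeps members that rise in 1 group, and *AG* and *SEP3* had no read in wild type, so the floral median does not describe the whole family.

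The remaining lists had no call in the edgeR fit of all libraries and medians between -0.52 and 0.57. *GSTU20*, a glutathione transferase gene, was at 22.3, 29.5 and 24.7 CPM in wild type and 10.8, 10 and 13.2 CPM in *clf* (log2 fold change -1.17, unadjusted p = 7.76e-04), and DESeq2 on the 12 libraries called it lower (adjusted p = 0.016). Of the 37 tested genes of its family 4 had an unadjusted p under 0.05 in edgeR, 2 in each direction, against 1.94% higher and 1.43% lower of all genes. The higher ones of this family were *GSTU17* (log2 fold change 1.20) and *GSTU16* (0.74). Without the 4 least correlated libraries 3 were called higher and 3 lower, and 5 of the 12 tested nitrate genes were called lower. Over all 20072 genes that fit called 273 higher and 247 lower. Among nitrate genes *NRT2.1* and *NIA1* were lower at an unadjusted p under 0.05, with log2 fold changes of -0.964 and -0.997, as were *CYP71A13* and *PAD3* of camalexin synthesis, at -3.64 and -1.49. In the edgeR fit of all libraries no member of the phosphate, sulfate, hypoxia, heat shock and clock lists had an unadjusted p under 0.05. The same held for the lists of root hairs, endodermis, suberin, vasculature and the root meristem. Without the 4 least correlated libraries edgeR called 2 phosphate genes higher and 1 lower. That fit also called *SDI1* (sulfate), *HSP17.6II* and *HSP70* (heat shock) higher, and *SUS1* (hypoxia), *PRR3* (clock) and *CYP71A13* lower. *EMF1*, a plant partner of the Polycomb complexes, was at 31.4, 35.1 and 41 CPM in wild type and 50.5, 46 and 46.8 CPM in *clf* (log2 fold change 0.41, unadjusted p = 0.0429), and none of the 5 tested H3K27 demethylase genes had an unadjusted p under 0.05.

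The -Fe libraries gave a measurement of the genotype effect in samples that the +Fe test did not compare. In them 22 genes were called higher (0.109% of those tested) and 5 lower (0.0248%). Of the 13 genes called higher at +Fe, 10 were also called higher at -Fe, which is 76.9% of the 13 and 45.5% of the 22. No label pairs the libraries, but at -Fe the deviations of same-numbered libraries all correlated positively. With a replicate block in edgeR 8 of the 13 were called at -Fe, all of them among the 10, while *AG* and *MYB37* were not (adjusted p = 0.114 and 0.0543). *CLF* was called lower in both. In 12 of the 13, all but *IMA2*, every *clf* library was above every wild type library at -Fe as well, as for 7.65% of all genes, while 6.28% were separated the other way. *AG* again had no read in -Fe wild type and 26, 42 and 38 reads in *clf*, at least 35.3-fold higher. *PI* and AT1G66320 missed the threshold at -Fe, with adjusted p of 0.0669 and 0.0776 and log2 fold changes of 1.8 and 4.14. Apart from *IMA2*, the effects at both iron levels differed by at most 1.92 on the log2 scale, with a median difference of 0.18 and unadjusted p of at least 0.0971. No gene passed the adjusted test of the difference between the genotype effects (0%), and at an unadjusted p under 0.05 there were 160 higher and 160 lower genes, whereas DESeq2 called 3 lower, *IMA2*, *WRKY59* and AT5G41290. The 2 iron levels share the estimate of spread but no library. The number called at -Fe also moved with single libraries, to 44 higher when wild type +Fe replicate 1 was left out, to 6 for wild type -Fe replicate 2 or 3, and to 10 and 8 for *clf* -Fe replicate 2 and 3.

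**Figure D5:**
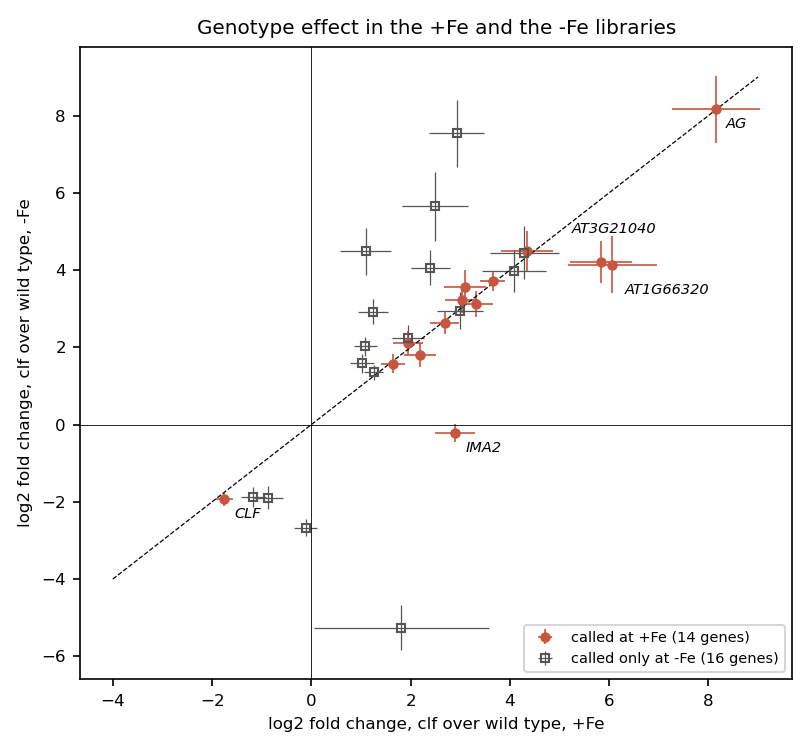
Log2 fold change in *clf* relative to wild type, at +Fe on the horizontal and at -Fe on the vertical axis, with bars of 1 SE, for the 14 genes called at +Fe (red) and the 16 called only at -Fe (open squares). Equal effects lie on the dashed line, and *IMA2* lies away from it, at 2.90 and -0.21.

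The 16 genes called only at -Fe mostly had the same sign at +Fe. All 12 that were higher had positive fold changes at +Fe, and 11 of them had an unadjusted p under 0.05. They included *FLC*, *SEP4*, the transcription factor gene *NGA1* (0, 0.417 and 0.336 against 4.57, 4.61 and 5.37 CPM at +Fe) and AT2G22750, a bHLH gene (0, 0.104 and 0.0959 against 1.42, 0.821 and 1.26 CPM). Both had an adjusted p of 0.052 at +Fe. Of the 4 that were lower, 3 had the same sign at +Fe.

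The called genes lay on all 5 chromosomes, 4, 2, 2, 2 and 4 on chromosomes 1 to 5, and no 2 of them were within 10 kb of each other. Their nearest tested neighbours, 3 on each side and 84 in all, had a median log2 fold change of -0.01. At an unadjusted p under 0.05 in edgeR, 9 of the 84 were higher than in wild type and 2 were lower. Over all 20168 genes the numbers were 391 (1.94%) and 289 (1.43%). Most of the 9 lie in local groups of adjacent or related genes, named below, so they are not separate cases. AT1G52110, next to the lectin gene AT1G52100 at a distance of 1106 bases, was at 0.127, 0.0522 and 0.192 CPM in wild type and 1.1, 0.73 and 1.35 CPM in *clf* (log2 fold change 3.03). AT3G21000, a retrotransposon-related gene 7368 bases from the pseudogene AT3G21040, and the pseudogene AT3G21010 between them had log2 fold changes of 2.4 and 5.41. AT1G66290, of the same F-box family as AT1G66320 and 11968 bases from it, had no read in wild type. Of the neighbours of *SCPL13*, *SCPL11*, *SNG1* and *SCPL10* had log2 fold changes of 0.74, 1.11 and 0.93. Whether reads shared between such copies add to these values was not tested. *MAM1* was the nearest neighbour of *MYB37* on one side, at 5018 bases, and had a log2 fold change of -1.36.

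DESeq2 on the same 12 libraries, with its own size factors, called 59 genes higher (0.258% of the 22873 it tested) and 15 lower (0.0656%), among them all 14 called by edgeR. At -Fe it called 157 higher (0.633%) and 61 lower (0.246%). Of the 59 genes, 57 had a positive fold change at -Fe and 42 were called there too, and of the 15, all were negative at -Fe and 5 were called. The genes that follow were chosen from these after their values were seen. Of 29 tested genes for subunits of nuclear factor Y, DESeq2 called *NF-YC7*, *NF-YA10*, *NF-YA6* and *NF-YA2* higher, whereas edgeR called none (adjusted p = 0.0935, 0.0604, 0.132 and 0.415). In edgeR 7 of the 29 were higher and none lower at an unadjusted p under 0.05, against 1.94% and 1.43% of all genes. The 29 together had a median of -0.01 on the log2 scale. At -Fe DESeq2 called only *NF-YA10* of these 4 (adjusted p = 0.00778, against 0.552, 1 and 0.645 for *NF-YC7*, *NF-YA6* and *NF-YA2*). *NF-YA10* was at 0.338, 0.626 and 0.623 CPM in wild type and 2.44, 2.1 and 3.55 CPM in *clf*, and *NF-YA2* at 1.73, 2.56 and 3.41 against 7.22, 8.07 and 7.85 CPM. *HIPP22*, a gene of the heavy metal-associated protein family, was at 3.25, 3.96 and 3.12 against 7.3, 7.76 and 9.58 CPM. The lower genes included *RAP2.7* (*TOE1*), which encodes a repressor of flowering, at 44.6, 36.8 and 41.1 CPM in wild type and 22.6, 21.6 and 18.6 CPM in *clf*. They also included the dehydrin gene *RAB18* (AT5G66400), a marker of abscisic acid responses, at 6.46, 5.79 and 4.6 against 1.35, 0.867 and 0.654 CPM. For both the groups did not overlap, and the adjusted p of edgeR was 0.052 and 0.0666.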

How the data were processed

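Root RNA of 12 libraries was sequenced as paired-end reads, aligned to TAIR10 (the submitters' notes name TopHat2) and counted per gene by HTSeq in union mode. The deposited read counts are raw, and the authors also deposited FPKM, computed by them from counts, gene length and library size. The version of the aligner and the strand setting are not given in the sources used here. A column of the count table without measurements was not used. RefSeq (TAIR10.1) named 31912 of the 32678 gene IDs.

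A single edgeR 4.0.16 model of the 4 groups (R 4.3.3) was fitted to the counts with TMM normalization, filterByExpr as the filter and robust estimation, leaving 8 residual degrees of freedom. The quasi-likelihood test of edgeR gave p, adjusted by Benjamini-Hochberg, and the threshold was 0.05. The 3 comparisons were *clf* against wild type at +Fe, the same at -Fe, and the difference of both. CPM are counts over TMM-scaled library sizes. Folds against a group with no read use a floor of 3 reads over the group, and intervals of ratios cover counting error only. No 2 libraries of a group agreed within sampling noise.

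The text names *CLF*, *SWN*, every called gene, in each of 25 gene lists the called members or else the 2 with the smallest p, and *FIT*, *FRO2* and *IRT1*. Any further gene was chosen with its values in view. The members and lists were chosen with earlier results of these data known. Alternatives were DESeq2 1.42.0 and edgeR with 12 or 6 libraries, RLE factors, other filters, a replicate block, limma 3.58.1 on log2(FPKM + 1) or log2(FPKM + 0.1), and fits without each library or without the 4 least correlated ones. Replicate numbers did not pair the libraries at +Fe, where the deviations of same-numbered libraries correlated at -0.386, -0.398 and 0.344. At -Fe the same measure was positive for all 3 (0.448, 0.541 and 0.165), which does not show a pairing. Wild type -Fe replicate 3 correlated more with *clf* -Fe replicate 2 (0.306), and both -Fe libraries numbered 1 were the least correlated of their groups. No label states a pairing. The block with 12 libraries gave 24 genes called higher and 4 lower at -Fe, of which 16 and 3 were also called without it.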

Additional observations from a re-analysis of the deposited data

Results flagged for a closer look

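*WRKY59*, which encodes a WRKY transcription factor, had a fold change of opposite sign at the 2 iron levels. At +Fe it had no read in wild type and 13, 9 and 4 reads in *clf*. At -Fe it had 61, 57 and 64 reads in wild type and 15, 15 and 11 in *clf*. The libraries of the genotypes did not overlap at either level. The adjusted p of the difference between the genotype effects was 0.0928 in edgeR's quasi-likelihood test. Chance was not assessed for this pattern, and the gene was chosen for it.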

How the results depend on the processing

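Fold changes moved less than calls. Over 81 named genes and 25 alternatives, the direction changed in 4 cases, none of them for a called gene. The log2 fold change became -0.13 for *RBCS1A* without *clf* +Fe replicate 2 (range -0.13 to 1.14 over single libraries left out), 0.020 for *FAR4* without wild type +Fe replicate 2 (range -0.45 to 0.020), and -0.16 for *XCP1* and -0.10 for *CASP4* without the 4 least correlated libraries. *CLF* stayed between -1.88 and -1.58 when single libraries were left out, and lost its call in edgeR with only the 6 +Fe libraries (-1.75, adjusted p = 0.0885) and there with a replicate block (-1.77, adjusted p = 0.491). The numbers of genes called higher and lower at +Fe were 59 and 15 with DESeq2, 57 and 21 with DESeq2 on 6 libraries, 3 and 0 with edgeR on 6 libraries, 21 and 2 with RLE factors, 20 and 2 with no filter on low counts, and 13 and 1 with at least 10 reads in 3 libraries. Limma gave 21 and 5 on log2(FPKM + 1), 21 and 3 on log2(FPKM + 0.1), and 25 and 5 without a filter. With a replicate block they were 7 and 1, and 1 and 0 on 6 libraries, although the numbers pair no +Fe libraries. They were 273 and 247 without the 4 least correlated libraries and 56 and 8 with those as a term. At -Fe the corresponding numbers were 157 and 61 with DESeq2, 153 and 63 on 6 libraries, 2 and 2 with edgeR on 6 libraries, 12 and 4 there with a replicate block, 980 and 622 without the 4 libraries and 183 and 66 with them as a term. Limma called 16, 10 and 16 lower at -Fe. The difference between the genotype effects had 3 genes called lower with DESeq2, 4, 2 and 4 with limma, and 348 higher and 103 lower without the 4 libraries. Leaving out single libraries gave 1 to 19 genes higher and 1 to 2 lower at +Fe, 6 to 44 higher and 2 to 17 lower at -Fe, and 0 for the difference. The median of the heat shock list went from -0.52 to 1.15 without wild type +Fe replicate 1. The cause of these changes was not tested. Each group had 3 libraries, and 11 of the 14 called genes were at a mean under 10 CPM. None of the 2026 genes over 100 CPM was called. Small differences can be missed at any level, and the part of depth and of the spread between libraries in this was not tested.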
